A study of Mus musculus with 2 samples.

Results

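The 10 genes Abcb11, Abcb4, Abcg5, Abcg8, Abcc2, Abcg2, Abcb1a, Abcc3, Abcc4 and Abcc6 encode ATP-driven efflux transporters of the hepatocyte and were chosen by gene symbol from 18193 named genes. All 11 probe sets whose platform symbol was a member were taken, so that Abcb1a had 2 probe sets and each of the other 9 genes had 1. The livers came from male 129SvEJ mice, 8 weeks old, that carried a homozygous disruption of Ppara (Ppara-null) or were wild type, and for 7 days both genotypes ate chow that held 0.2% fenofibrate. For either genotype, RNA from the livers of 3 mice went into a single pool that was read on 1 Affymetrix expression array. There are therefore 1 null value and 1 wild-type value per probe set, no replicate and no test, and each difference below is a size only. No array of mice without the drug was analysed here, so differences that exist without fenofibrate and differences in the response to it cannot be told apart. Which part of Ppara was disrupted is not given in the sources used here.

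Hepatocytes are polarised cells, and ABC (ATP-binding cassette) transporters sit at both of their poles. Those of the canalicular membrane build bile by pumping bile salts, phospholipid, sterols, conjugated organic anions and drugs into it, and those of the basolateral membrane return anions and other solutes to the blood. PPARα, the protein of Ppara, is a nuclear receptor that binds DNA with RXR and is activated by fenofibrate, and other nuclear receptors (FXR, LXR, PXR and CAR) and the stress-response factor NRF2 are known regulators of these transporters.

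On the array of Ppara-null liver, 3 of the 10 transporters were at least 2-fold lower than in wild type, namely the phospholipid transporter Abcb4, the urate and drug transporter Abcg2 and the organic anion transporter Abcc4. None of the 10 was at least 2-fold higher. The other 7 lay within 2-fold, with log2 ratios of null over wild type between -0.74 (Abcb1a) and 0.60 (Abcc2). Among all 13041 measured genes, 651 were at least 2-fold lower in null (4.99%) and 365 at least 2-fold higher (2.80%). The median log2 ratio was -0.62 over the 10 members and -0.005 over all measured genes. In whole liver, fewer cells of a type and less RNA per cell cannot be told apart.

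A gene counts here as measured when its brightest probe set reached a floor, set at each array's median signal without control probe sets, on at least 1 array. The null array had a floor of 269.4 and the wild-type array 287.8. Signals are on the authors' linear scale, and those under a floor were raised to it before a ratio was taken. All 10 members were measured, 9 of them on both arrays and Abcc4 on the wild-type array alone. As a gauge of scatter within this pair of arrays, genes with several bright probe sets had an SD of 0.42 among their log2 ratios, which leaves out all differences between mice and pools.

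**Figure D1:**
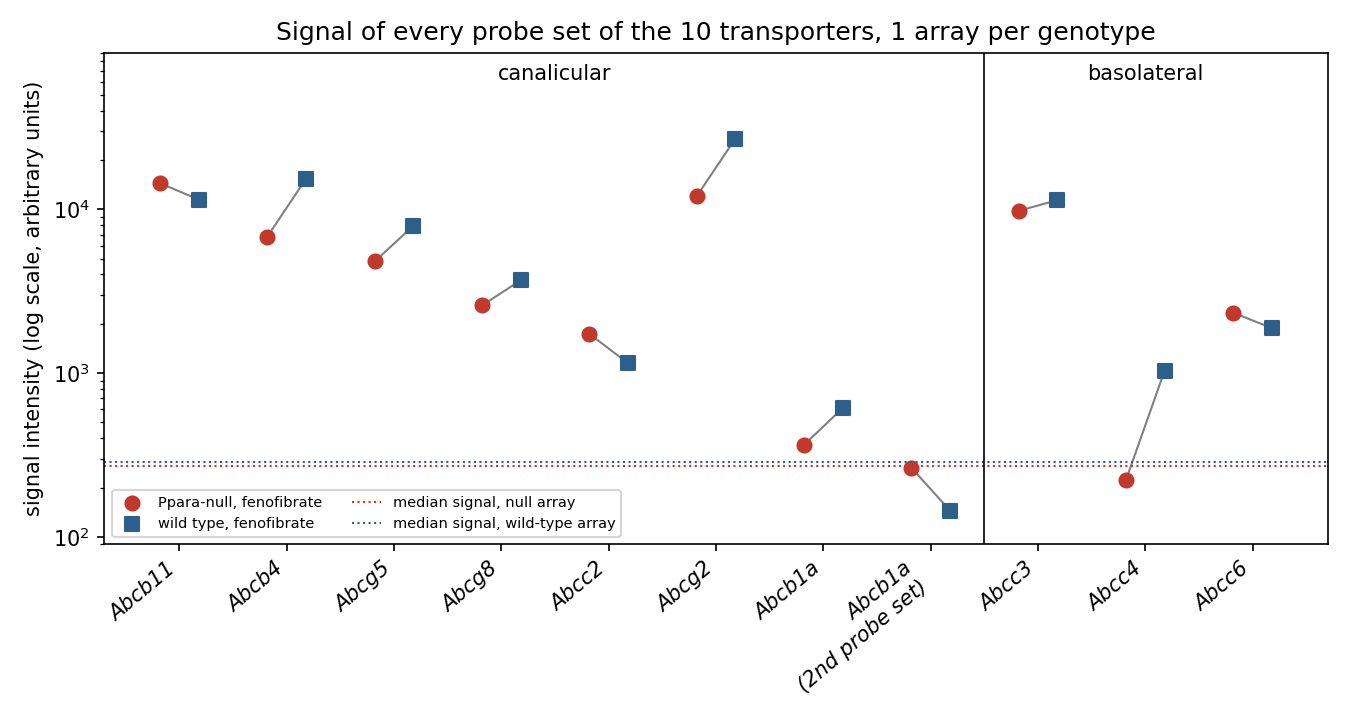
Signal intensity (log axis, arbitrary units) of every probe set of the 10 transporters on the array of Ppara-null liver (red circles) and of wild-type liver (blue squares), joined by a line for each probe set. Dotted lines are the 2 floors of 269.4 (null) and 287.8 (wild type). Abcb4, Abcg2 and Abcc4 have the steepest lines, while Abcb11, Abcc2, Abcc6 and the second probe set of Abcb1a, which is under the floor on both arrays, lean the other way.

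The largest canalicular differences were those of Abcb4 and Abcg2. Abcb4, named Mdr2 in mice, moves phosphatidylcholine to the outer leaflet of the canalicular membrane, from which bile salts take it up into bile. Its signal was 6812 in null liver and 15358 in wild-type liver, a log2 ratio of -1.17 (2.25-fold lower in null). This is 2.76 times the SD between probe sets of a gene, and 403 of the 13041 measured genes, Abcb4 included, had a ratio at or below it. Abcg2, the breast cancer resistance protein, exports urate, sulphated conjugates and many drugs. Its signal was 11993 in null liver and 26983 in wild-type liver, also 2.25-fold lower in null (log2 ratio -1.17). Both genes were far above the floor on either array, at 25.3 times (Abcb4) and 44.5 times (Abcg2) the floor in null, so their ratios do not rest on the floor.

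Abcg5 and Abcg8 encode the partners of a heterodimer that exports cholesterol and plant sterols into bile. Abcg5 had a signal of 4806 in null and 7924 in wild type, a log2 ratio of -0.72 (1.65-fold lower). Abcg8 had 2588 in null and 3683 in wild type, a log2 ratio of -0.51 (1.42-fold lower). Both partners were lower in null by under 2-fold, and their ratios differed by 0.21 on the log2 scale, less than the SD of 0.42 between probe sets of a gene.

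Abcb1a encodes a P-glycoprotein, a pump for bulky lipophilic drugs, and lay near the floor. Its brighter probe set gave 364.3 in null and 610.2 in wild type, a log2 ratio of -0.74. The null value lay under the brightest Bacillus control probe set of that array (422.4), a probe set for bacterial transcripts that liver does not contain. It cannot be told from background, so the ratio is uncertain. The second probe set gave 264.4 in null and 144.7 in wild type, under the floor on both arrays, and has no ratio.

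The other 2 canalicular members were not lower in null as deposited. Abcb11, the bile salt export pump, gave 14429.9 in null and 11464 in wild type, a log2 ratio of 0.33 that became -0.05 after scaling to the hybridization controls. Abcc2 (Mrp2), which exports bilirubin glucuronides and glutathione conjugates, gave 1735 in null and 1148 in wild type, a log2 ratio of 0.60 (1.51-fold higher), or 0.22 under the same scaling. Bile salts and phospholipid leave the cell by Abcb11 and Abcb4, and the distance of 1.505 between their log2 ratios is not changed by a common scaling factor. The Abcc2 probe set carries the suffix _s_at, which marks probes shared by more than 1 transcript.

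Among the 3 basolateral members, Abcc4 alone was over 2-fold apart. Abcc4 (Mrp4) exports bile acids together with glutathione, and also cyclic nucleotides and conjugated steroids. Its signal was 222.1 in null, under the floor, and 1033.5 in wild type, which makes it at least 3.84-fold lower in null (log2 bound -1.94). The bound follows the floor and was 2.45-fold with the floors at the brightest Bacillus controls and 1.26-fold, under the 2-fold threshold, with floors at the 75th percentile of each array. Abcc3 (Mrp3), which carries glucuronides and bile acids back to blood, gave 9787 in null and 11364.5 in wild type, a log2 ratio of -0.22. Abcc6, whose activity releases ATP from hepatocytes and so supplies pyrophosphate to plasma, gave 2335 in null and 1881 in wild type, a log2 ratio of 0.31 that became -0.07 after scaling to the hybridization controls. As deposited both ratios were smaller than the SD between probe sets of a gene, while that of Abcc3 was -0.59 after the same scaling.

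Set side by side, the poles overlapped. The median log2 ratio was -0.72 over the 7 canalicular members (range -1.17 to 0.60) and -0.22 over the 3 basolateral members (range -1.94 to 0.31). The canalicular median lay 0.51 below the basolateral median, and each pole held members that were higher and members that were lower in null. At least 2-fold lower were 2 of 7 canalicular and 1 of 3 basolateral genes. With 1 array per genotype and 3 basolateral genes, this difference has no test, and the poles were not shown to differ.

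**Figure D2:**
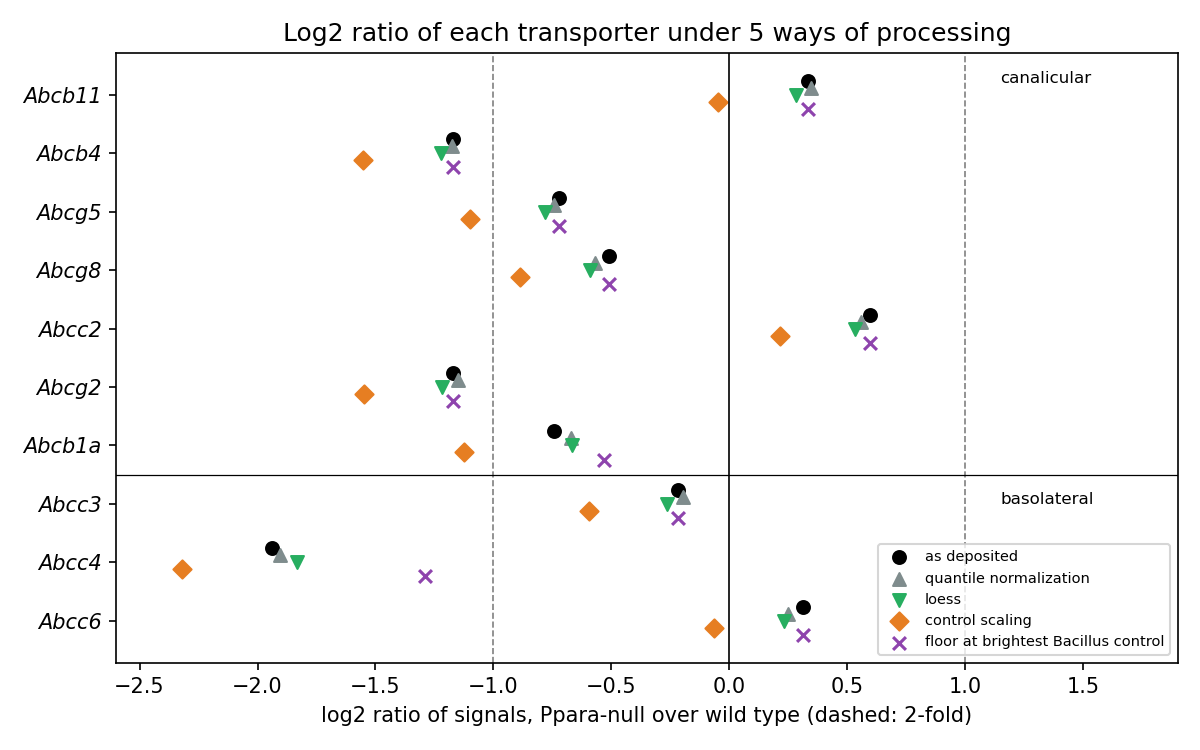
Log2 ratio of signals (null over wild type, horizontal axis) of each transporter as deposited and under 4 other ways of processing, canalicular genes above the line and basolateral genes below it. Dashed lines mark 2-fold. Control scaling moves every gene to the left by 0.38 and places 5 genes past 2-fold, and the floor at the brightest Bacillus control moves Abcc4 most.

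The array scaling sets where 0 lies. The 18 probe sets of the hybridization controls, bacterial and phage transcripts added to each sample, had a median log2 ratio of 0.38, which means that they read higher on the null array. Scaling to them moved the median of all measured genes to -0.38, and 1759 genes were then at least 2-fold lower and 109 higher, against 651 and 365 as deposited. Under this scaling Abcb1a (-1.12) and Abcg5 (-1.10) also passed 2-fold, so that 5 members were lower. Abcb4 and Abcg2 were at least 2.22-fold lower under each alternative scaling. The alternatives of floor and probe set choice could not change their ratios, since each gene has 1 probe set that lies above every floor used.

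The promoters are shown for the 3 genes past 2-fold, for Abcb11 as the bile salt pump, and for the interval shared by Abcg5 and Abcg8. The log2 ratio of Abcb11 was 0.33 as deposited, smaller than the SD of 0.42, and -0.05 after scaling to the hybridization controls. RefSeq windows of build GRCm38.p6 were matched for 8 of the 10 members, in 12 windows of 250 bases before to 50 after a listed start. Printed are the 250 bases before the first listed start, 5′ to 3′ on the gene's strand, for Abcb11 (chr2:69342617-69342866, minus strand), Abcb4 (chr5:8893471-8893720, plus), Abcg2 (chr6:58584283-58584532, plus) and Abcc4 (chr14:118706220-118706469, minus), and the 109 bases between the starts of Abcg5 and Abcg8 (chr17:84683012-84683120, read on the strand of Abcg8). Capitals mark an inverted repeat of the FXR type in Abcb11, single receptor repeats (AGGTCA) in Abcg2, an antioxidant response element (TGACNNNGC) in Abcc4, and GATA motifs (AGATAA) in the Abcg5 and Abcg8 interval, each on either strand. Abcb4 was searched for AGGTCA and TGACNNNGC and has no capitals.
Abcb11: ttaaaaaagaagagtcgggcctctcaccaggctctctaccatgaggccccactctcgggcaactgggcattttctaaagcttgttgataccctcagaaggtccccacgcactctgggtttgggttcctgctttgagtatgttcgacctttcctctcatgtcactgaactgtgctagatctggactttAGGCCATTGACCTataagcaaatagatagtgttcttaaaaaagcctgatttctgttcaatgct
Abcb4: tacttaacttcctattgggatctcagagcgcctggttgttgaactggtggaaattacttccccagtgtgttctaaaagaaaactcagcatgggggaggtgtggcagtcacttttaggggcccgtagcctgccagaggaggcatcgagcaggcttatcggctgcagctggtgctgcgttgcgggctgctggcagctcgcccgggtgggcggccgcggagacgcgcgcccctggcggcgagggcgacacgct
Abcg2: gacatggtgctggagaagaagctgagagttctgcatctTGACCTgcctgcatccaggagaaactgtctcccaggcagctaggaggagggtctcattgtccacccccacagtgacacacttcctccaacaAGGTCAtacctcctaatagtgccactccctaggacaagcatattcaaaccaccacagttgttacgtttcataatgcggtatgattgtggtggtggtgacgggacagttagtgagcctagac
Abcc4: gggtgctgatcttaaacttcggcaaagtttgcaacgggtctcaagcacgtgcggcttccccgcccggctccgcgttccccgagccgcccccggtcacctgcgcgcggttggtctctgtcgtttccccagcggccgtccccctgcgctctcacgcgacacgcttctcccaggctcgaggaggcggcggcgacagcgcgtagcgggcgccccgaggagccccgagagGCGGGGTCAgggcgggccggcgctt
Abcg5 and Abcg8 interval: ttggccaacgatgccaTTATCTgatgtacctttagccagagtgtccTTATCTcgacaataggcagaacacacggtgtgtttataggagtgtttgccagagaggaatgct

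The motifs were searched in the whole windows on both strands. The direct repeat to which PPARα and RXR bind was searched as 2 copies of AGGTCA in the same direction with 1 base between them and, relaxed, as 2 such copies of AGGNCA. Neither was found in the 12 windows of members, and they occur in 0.0396% and 0.381% of the 32851 windows in the table. The LXR repeat, 2 copies of AGGNCA in the same direction with 4 bases between them, occurs in 0.253% of all windows and in none of a member. The Abcb11 window holds AGGCCATTGACCT 63 bases before the start, a match to the FXR repeat (AGGNCA inverted, with 1 base between the copies) that 0.0883% of all windows hold and no other window of a member does. This match contains the single repeat AGGTCA on the reverse strand. AGGTCA occurs in 16.3% of all windows and in those of Abcb11, Abcg2 and Abcc2. The element TGACNNNGC occurs in 12.4% of all windows and in those of Abcc4, Abcc2 and Abcb1a. The motif AGATAA occurs in 11.2% of all windows, and the interval between Abcg5 and Abcg8 holds 2 copies. The interval is part of both promoter windows, since these genes lie head to head. These are matches of letters and show no binding, and motifs absent from these short windows may lie elsewhere.

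Chromosomal neighbours of the members were looked up after the member values were known. Abcb1a, Abcb1b and Abcb4 follow each other on chromosome 5, and the next protein-coding gene is Crot, the peroxisomal carnitine octanoyltransferase. All 4 had lower signals in null at their brightest probe set, beside 6567 of all 13041 measured genes with a negative log2 ratio. This stretch of 4 was picked after its values were seen. For Abcb1a that null signal was under the brightest Bacillus control, and its second probe set was under the floor on both arrays. Abcb1b, the second P-glycoprotein gene of mice, gave 473.1 in null and 1485 in wild type, a log2 ratio of -1.65 (3.14-fold lower), and its other probe set gave 63.5 in null and 340.8 in wild type. Crot gave 14417 in null and 36394 in wild type, a log2 ratio of -1.34 (2.52-fold lower), while a dim probe set of Crot gave 317.1 in null and 38.6 in wild type. Beyond this stretch, Tmem243 after Crot had a log2 ratio of 0.55, and Rundc3b next to Abcb1a was under the floor on both arrays. Slc25a40, the next gene on that side, gave 392.3 in null, under the brightest Bacillus control, and 365.1 in wild type, a log2 ratio of 0.10 that became -0.28 after scaling to the hybridization controls. Abcb1a, Abcb1b and Abcb4 are related in sequence, and whether probes of 1 gene also read another was not tested. On chromosome 17, Dync2li1 (-0.21) and Lrpprc (-0.03), which flank Abcg5 and Abcg8, had ratios nearer to 0 than the pair. Dync2li1 gave 422 in null, just under the brightest Bacillus control (422.4). After scaling to the hybridization controls the ratios were -0.58 (Dync2li1), -0.41 (Lrpprc), -1.10 (Abcg5) and -0.89 (Abcg8).

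**Figure D3:**
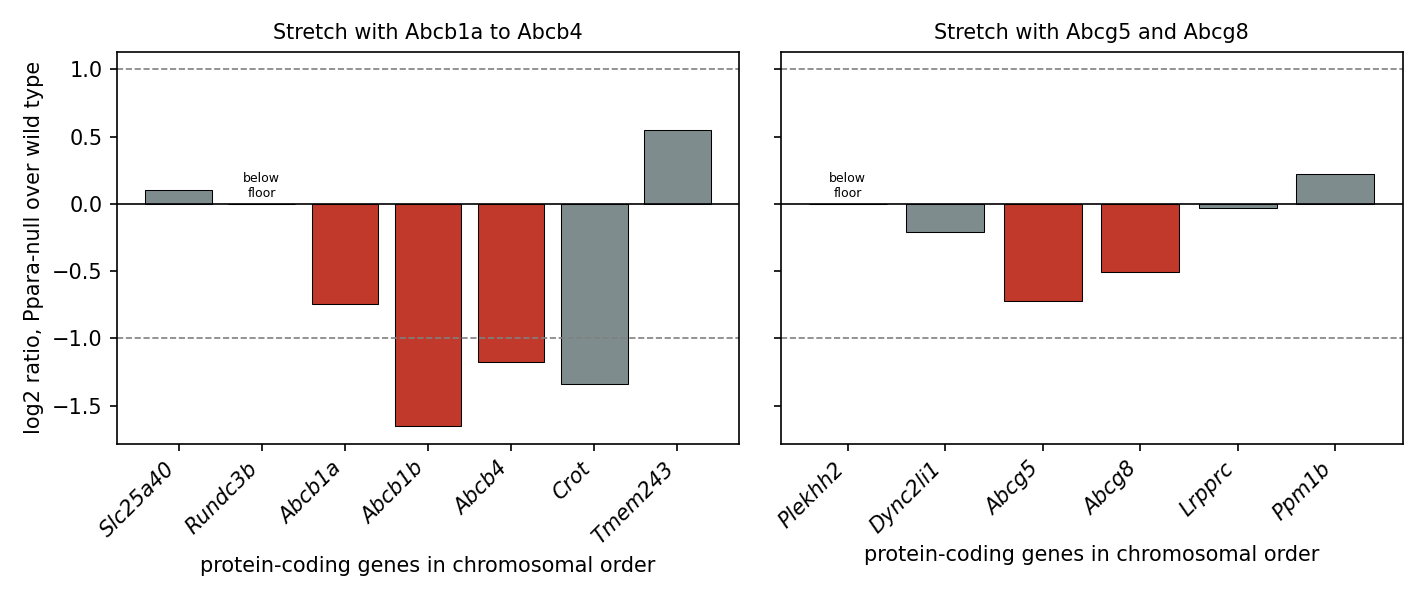
Log2 ratio of signals (null over wild type, vertical axis) of protein-coding genes in chromosomal order around Abcb1a to Abcb4 (left) and around Abcg5 and Abcg8 (right), 1 value per gene, with ABC transporters in red, other genes in grey and 2-fold dashed. Abcb1a (-0.74), Abcb1b (-1.65), Abcb4 (-1.17) and Crot (-1.34) have negative values, as have 6567 of all 13041 measured genes. The null signal of Abcb1a cannot be told from background.

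The rest of the ABC superfamily was taken as the wider frame. Of 35 other genes of the families Abca to Abcg, 27 were measured, 3 were at least 2-fold lower in null and 1 was higher, with a median log2 ratio of -0.15. The 3 were Abcb1b and the peroxisomal fatty acyl-CoA importers Abcd2 and Abcd3. Abcd3 gave 25627 in null and 65801 in wild type (2.57-fold lower). Abcd2 gave 89.8 in null, under the floor, and 1872 in wild type, at least 6.95-fold lower, a bound that was 4.43-fold with floors at the brightest Bacillus controls and 2.29-fold with floors at the 75th percentile. Abcb1b was 1.81-fold lower with floors at the 75th percentile and 1.99-fold lower with the median over its probe sets, both short of 2-fold. Abca2, a lipid transporter best known from brain, was at least 2.59-fold higher in null (744.2 against 181.4), a bound of 1.37 on the log2 scale that was just short of 2-fold, at 0.99, after scaling to the hybridization controls.

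**Figure D4:**
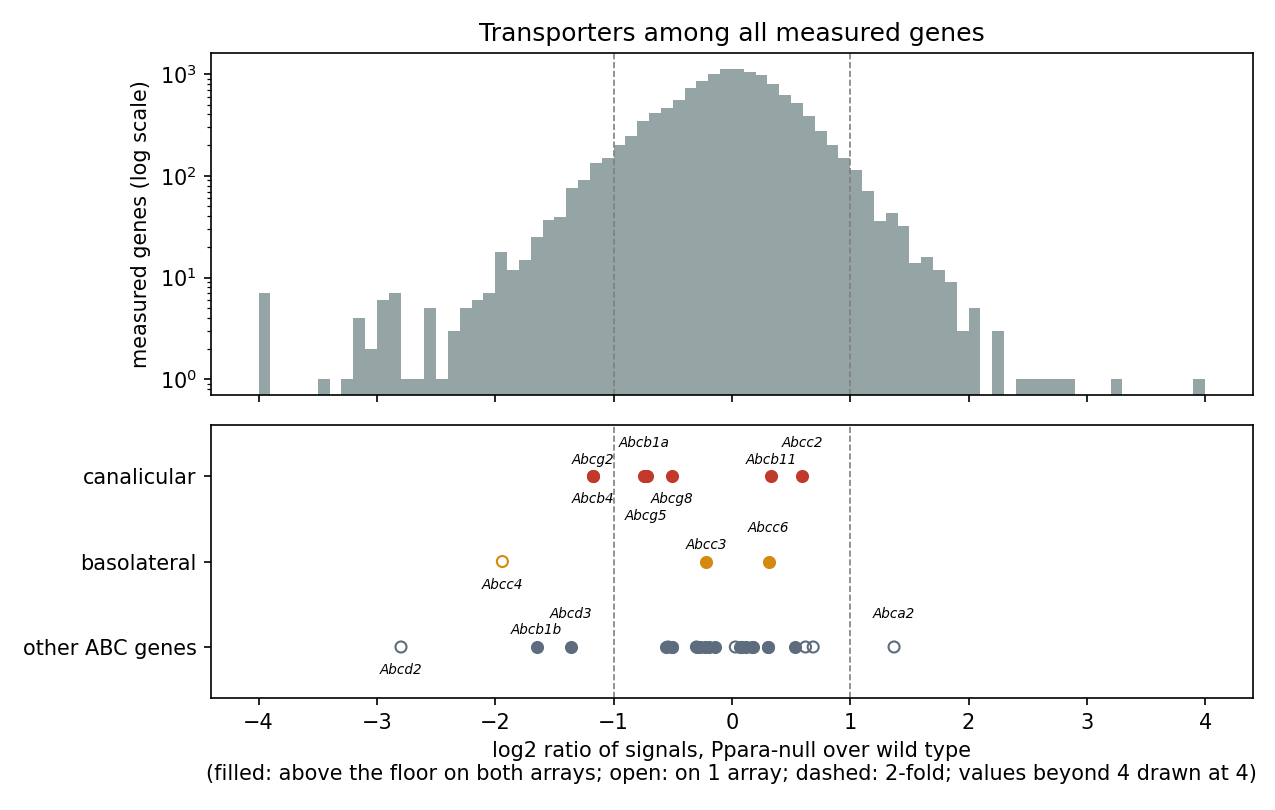
Top, number of measured genes (log axis) by log2 ratio of signals, null over wild type. Bottom, each ABC gene on the same axis, as canalicular member, basolateral member or other ABC gene, with open circles for genes above the floor on 1 array and dashed lines at 2-fold. Abcc4 at -1.94 is the lowest member, and Abcd2 at -2.80 the lowest ABC gene.

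Carriers that bring bile acids and organic anions into hepatocytes, or move them through its basolateral membrane without ATP, had 7 measured genes, of which 2 were at least 2-fold higher in null and 1 lower. A positive log2 ratio was found for 6 of the 7, beside 6473 of all 13041 measured genes, and the median was 0.44, or 0.06 after scaling to the hybridization controls. That scaling put Slco1b2 (-0.03), Slc10a1 (0.01) and Slco1a1 (0.06) near 0. Slc22a7 (5.76-fold) and Slco1a4 (4.12-fold), organic anion carriers, were at least 2-fold higher in null under either scaling. The bile acid uptake carrier Slc10a1 had a log2 ratio of 0.39 at its brighter probe set and 0.01 at the other. Slc51a, a subunit of the basolateral bile acid exporter, was at least 2.10-fold lower in null (51.9 against 564.8), or 1.34-fold with floors at the brightest Bacillus controls. With quantile normalization (1.98-fold) and with loess (1.95-fold) the bound of Slc51a was just short of 2-fold. Slc51a differed in the same direction as Abcc4, and both bounds come from null signals under the floor. Slc51b, its partner, was under the floor on both arrays.

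As deposited, receptors and factors known to regulate these transporters were within 2-fold, 11 of 11 measured. Most genes were, as 1016 of all 13041 measured genes were past 2-fold. The median log2 ratio over the 11 was 0.13, or -0.25 after scaling to the hybridization controls. Nr1h4, which encodes FXR, gave 7701 in null and 6391 in wild type, a log2 ratio of 0.27 that became -0.11 under that scaling. Nr0b2, the FXR-induced repressor SHP, gave 6907 in null and 4626 in wild type (log2 ratio 0.58), and Nr5a2 (LRH-1) had 0.75 at its brightest probe set but -0.66 at another. The ratios of Nr1i3 (CAR, 0.03), Nr1i2 (PXR, -0.12), Nr1h3 (LXRα, -0.12) and Nfe2l2 (NRF2, -0.15) were smaller than the SD between probe sets of a gene as deposited, but after that scaling Nr1i2 (-0.50), Nr1h3 (-0.50) and Nfe2l2 (-0.53) exceeded it.

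As checks on the samples, the 3 Ppara probe sets read between 36.0% and 50.6% of wild type on the null array. Their null signals were 5.76 to 12.7 times the floor, so Ppara signal was lower but still present in null. Of 8 measured PPARα target genes, 8 were at least 2-fold lower in null (Cyp4a14, Vnn1, Ehhadh, Acot1, Acadl, Pdk4, Pex11a and Plin2, median 5.02-fold). The 8 hepatocyte markers were all measured on both arrays and all higher in null as deposited (median log2 ratio 0.28), but -0.10 in the median after scaling to the hybridization controls. Their summed signal was 1230524 in null and 1037372 in wild type. Of 5 annotated cholangiocyte markers, whose cells also carry some of these transporters, none reached the floor on both arrays, and the summed signal was 1199.5 in null and 930.9 in wild type. Of 6 Kupffer cell and macrophage markers 5 were measured (median 0.62; summed signal 18433 in null and 12815 in wild type), and of 6 endothelial markers 6 (median 0.01; 12081 and 10949). Of 6 stellate cell markers 5 were measured (median -0.20; 8875 and 7458). Past 2-fold were the macrophage marker Cd5l (2.12-fold higher in null, or 1.63-fold after scaling to the hybridization controls) and the endothelial marker Pecam1 (at least 2.36-fold lower, or 1.51-fold with floors at the brightest Bacillus controls). Scaling to the hybridization controls gave medians of 0.25 for macrophage, -0.37 for endothelial and -0.58 for stellate cell markers. The median of all measured genes was -0.38 under that scaling. The 3 measured cholangiocyte markers had a median of 0.24 as deposited and -0.14 under that scaling. Among them Sox9, with a null signal of 168.2 under the floor, had a bound of -0.69 that became -1.07, past 2-fold. Krt19 (0.24) and Epcam (0.94) were higher in null as deposited, also as bounds. Epcam passed 2-fold with quantile normalization (1.02) and with loess (1.05). No marker was listed at 0, and the part of cell composition in the transporter ratios was not tested.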

How the data were processed

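Deposited signal intensities were used, 1 per probe set and array, which per the labels the authors made with the Affymetrix statistical algorithm scaled to a target of 1000. Trimmed by 2% at either end, the mean of each array was 1000.01. The software version is not given in the sources used here, and the labels give both arrays identical scanner text, which was not used. Of 45037 probe sets that are not controls, 34945 had 1 symbol in the platform annotation of 2016, 932 had several and 9160 none, and only those with 1 named genes. All 10 members were found by gene identifier in the RefSeq table of GRCm38.p6.

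The brightest probe set by mean log2 signal stood for its gene. Log2 ratios are null over wild type after the floor, called at 2-fold. With 1 array per genotype there was no test, and the number of arrays limits the precision. The named genes were all members, Ppara, other ABC genes past 2-fold, and from each list up to 4 of those with the largest ratios and any past 2-fold. The members, lists, floor and alternatives were chosen with earlier results of these data known. Genes of interest outside this rule were named after their values were seen. They were Slc10a1, Slco1b2, Slco1a1, Slc51b, Abca1, Abcg1, Atp8b1, Sox9, Krt19, Epcam, some of the receptors and the chromosomal neighbours. The calling code was checked on simulated data with planted changes larger than those of Abcb4 and Abcg2. The simulated noise was that between probe sets of a gene, without differences between mice and pools. The check therefore does not show how reliable the 2-fold calls are. Python 3.11.15, numpy 2.4.6, pandas 2.3.3 and statsmodels 0.14.6 were used.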

Additional observations from a re-analysis of the deposited data

How the results depend on the processing

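The 10 alternatives of scaling, floor and probe set choice changed the direction of no member past 2-fold. Under them 96 member values moved by less than the SD between probe sets of a gene and 2 by more. Both were of Abcc4, whose bound was -0.34 with floors at the 75th percentile and -1.29 with floors at the brightest Bacillus controls, against -1.94. Many of the 96 could not move, since 9 members have 1 probe set and most members lie far above every floor. Scaling to the hybridization controls is a common shift of 0.38, under the SD of 0.42, so it could move no member by more than the SD. The tally is therefore largely fixed by construction. Among members within 2-fold, Abcb11 (-0.05) and Abcc6 (-0.07) changed sign after scaling to the hybridization controls. Abcb1a was not measured with floors at the 75th percentile, nor Abcc2 without probe sets ending in _x_at or _s_at. Scaling to the hybridization controls put 5 members past 2-fold, against 3 as deposited and 2 with floors at the 75th percentile, where Abcc4 was lost, and the number was 6 with a 1.5-fold and 1 with a 3-fold threshold, by construction of the threshold. The canalicular minus basolateral median lay between -0.52 and -0.32. Without Abcc4, a choice made after seeing the data, it was -0.77. Over all measured genes, where 1016 were past 2-fold, the count was 5273 without a floor, 3986 and 255 with floors at the 25th and 75th percentile, 600 (303 higher and 297 lower in null) with floors at the brightest Bacillus controls, 1868 after scaling to the hybridization controls, and 3363 and 190 with 1.5-fold and 3-fold thresholds. Dim genes, Abcc4 and Abcb1a among the members, are limited by signal over background. No paired analysis was possible because each genotype had 1 array.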

Other observations

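Genes regulated by the factors that also control the transporters were read as lists, chosen with earlier results of these data known. Beside these lists, 1016 of all 13041 measured genes were at least 2-fold apart as deposited. Of 8 measured NRF2 target genes none was 2-fold apart, with a median log2 ratio of -0.10, and the largest was Nqo1, a quinone reductase, at 669.0 in null and 1227 in wild type (log2 ratio -0.87). With the hybridization controls as the scale, Nqo1 was 2.39-fold lower in null (log2 ratio -1.25) and the list's median was -0.48. Of 5 measured target genes of CAR and PXR none was 2-fold apart, with a median of 0.26 that became -0.12 after scaling to the hybridization controls. Cyp2c55 (0.85) and Cyp2b10 (0.68) had the largest ratios among them. Of 6 LXR target genes 1 was at least 2-fold lower in null, the desaturase gene Scd1 (3.04-fold, and 8.03-fold at its other probe set), while Abca1 (0.09) and Abcg1 (-0.51), which export cholesterol from cells, were within 2-fold. The list had a median of -0.29 with 4 of 6 ratios negative, beside 6567 of all 13041 measured genes. Under the control scaling the median was -0.66, all 6 were negative, and Lpcat3 (-1.03), a phospholipid acyltransferase gene, also passed 2-fold. That scaling shifts all genes alike, and 10387 of all 13041 measured genes were then negative, with a median of -0.38 and 1759 at least 2-fold lower. Of 5 measured FXR target genes, Slc51a, also among the carriers above, was at least 2-fold lower, as a bound from a null signal under the floor. The other 4 were higher in null as deposited. The largest were Fgfr4 (0.74 at its brightest probe set, -0.43 at another), Nr0b2 (0.58) and Slc27a5 (0.39). The median of the 5 was 0.39, or 0.01 after scaling to the hybridization controls.

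Proteins that work with the canalicular pumps were within 2-fold in 12 of 12 genes, with a median log2 ratio of -0.07. Most genes were, as 1016 of all 13041 measured genes were past 2-fold. Atp8b1, the phospholipid flippase that keeps this membrane stable against bile salts, gave 4038 in null and 2987 in wild type (0.43). The copper exporter Atp7b gave 669.9 in null and 1149 in wild type at its brightest probe set (-0.78), and 330.9 in null and 998.8 in wild type at another (-1.59). The null value of 330.9 was under the brightest Bacillus control (422.4), so the second ratio is uncertain. A further Atp7b probe set was under the floor on both arrays (65.7 in null and 236.9 in wild type). After scaling to the hybridization controls 2 of the 12 genes were at least 2-fold lower in null, and the median was -0.45. Among all 13041 measured genes, 1759 were then at least 2-fold lower, and the median was -0.38.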
